A study of Homo sapiens with 44 samples.

Results

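The 46 genes described here encode DNA repair and checkpoint proteins. They were listed by name, with earlier results of these data known. They comprise 11 genes of interstrand crosslink repair, 16 of homologous recombination, 5 of mismatch repair, 5 of non-homologous end joining, 5 of checkpoint signalling and 4 of base excision and single-strand break repair. All 46 were found and tested in both expression tables of the series, which list 18797 genes for the GAS41 experiment and 21159 for the doxorubicin experiment.

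RNA was measured in 18 libraries, in 6 groups of 3, from HCT116, a human colon cancer cell line with an intact p53 gene (p53+/+ in the labels) and a known defect in mismatch repair. In the doxorubicin experiment, unedited cells received 500 nM doxorubicin or its solvent, DMSO. In the GAS41 experiment, the groups were mut rescue, wt rescue, GAS41-KO and WT. GAS41-KO cells lack GAS41, the product of YEATS4, a chromatin protein whose YEATS domain binds acylated lysines of histone H3. The wt rescue cells are GAS41-KO cells with a stably expressed GFP-Flag-tagged GAS41, and the mut rescue cells carry the same construct with the changes Y74A and W93A. All 4 groups of the GAS41 experiment share the p53+/+ HCT116 background. The labels name neither the promoter of the constructs, nor the number of clones behind each edited line, nor the hours of doxorubicin treatment. They call the replicates biological without saying whether these were separate cultures, so that p-values measure the spread between these libraries, which may be technical.

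Crosslinks between the DNA strands are opened by the Fanconi anaemia pathway, in which a core complex of FANC proteins attaches ubiquitin to the FANCD2-FANCI pair. Homologous recombination copies a broken end from the sister chromatid, after resection of the end and loading of a recombinase by BRCA2 and its partners. End joining seals broken ends without a template, mismatch repair removes replication errors, and ATM and ATR start the signalling that holds the cell cycle while damage is repaired. Many crosslink repair, recombination and checkpoint genes are expressed mainly in cells that replicate DNA. Doxorubicin poisons a topoisomerase and breaks DNA.

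Each doxorubicin or DMSO library held 17442035 to 18894312 reads, and each library of the GAS41 experiment 16857982 to 18546135. Levels are given as normalized reads (reads divided by the size factor of the library), which compare 1 gene between libraries and not 1 gene with another, because transcript lengths were not used. Log2 changes are on the deposited variance-stabilized scale, which shows smaller changes than the read ratios for genes with few reads. A gene was called where its adjusted p was under 0.05 with limma, over all genes tested. The keratin genes KRT8, KRT18 and KRT19 had between 9440 and 95550 reads in every library. EPCAM had 907 to 9211 reads and CDH1 129 to 1514 in the GAS41 experiment. The differentiated colon markers VIL1, CDH17 and LGALS4 had at most 55 reads, and the leukocyte marker PTPRC had at most 6. VIL1 averaged 46.5 normalized reads with doxorubicin and 0.323 with DMSO, and had at most 1 read in the GAS41 experiment. Other listed markers were not as low. In the GAS41 experiment CDX2 had 176 to 291 reads, KRT20 13 to 107, LYZ (immune list) 15 to 54 and COL1A1 (fibroblast list) 149 to 328. In the doxorubicin experiment they had 322 to 449, 14 to 113, 20 to 30 and 249 to 383. YEATS4 stood at 2551, 2358 and 2538 normalized reads in mut rescue, 2887, 3500 and 3372 in wt rescue, 386.1, 336.5 and 325.3 in GAS41-KO, and 625.3, 608.2 and 621.4 in WT. The knockout libraries were thus the lowest for the targeted gene, at 0.565 of the WT mean (limma adjusted p = 2.09e-06).

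**Figure D1:**
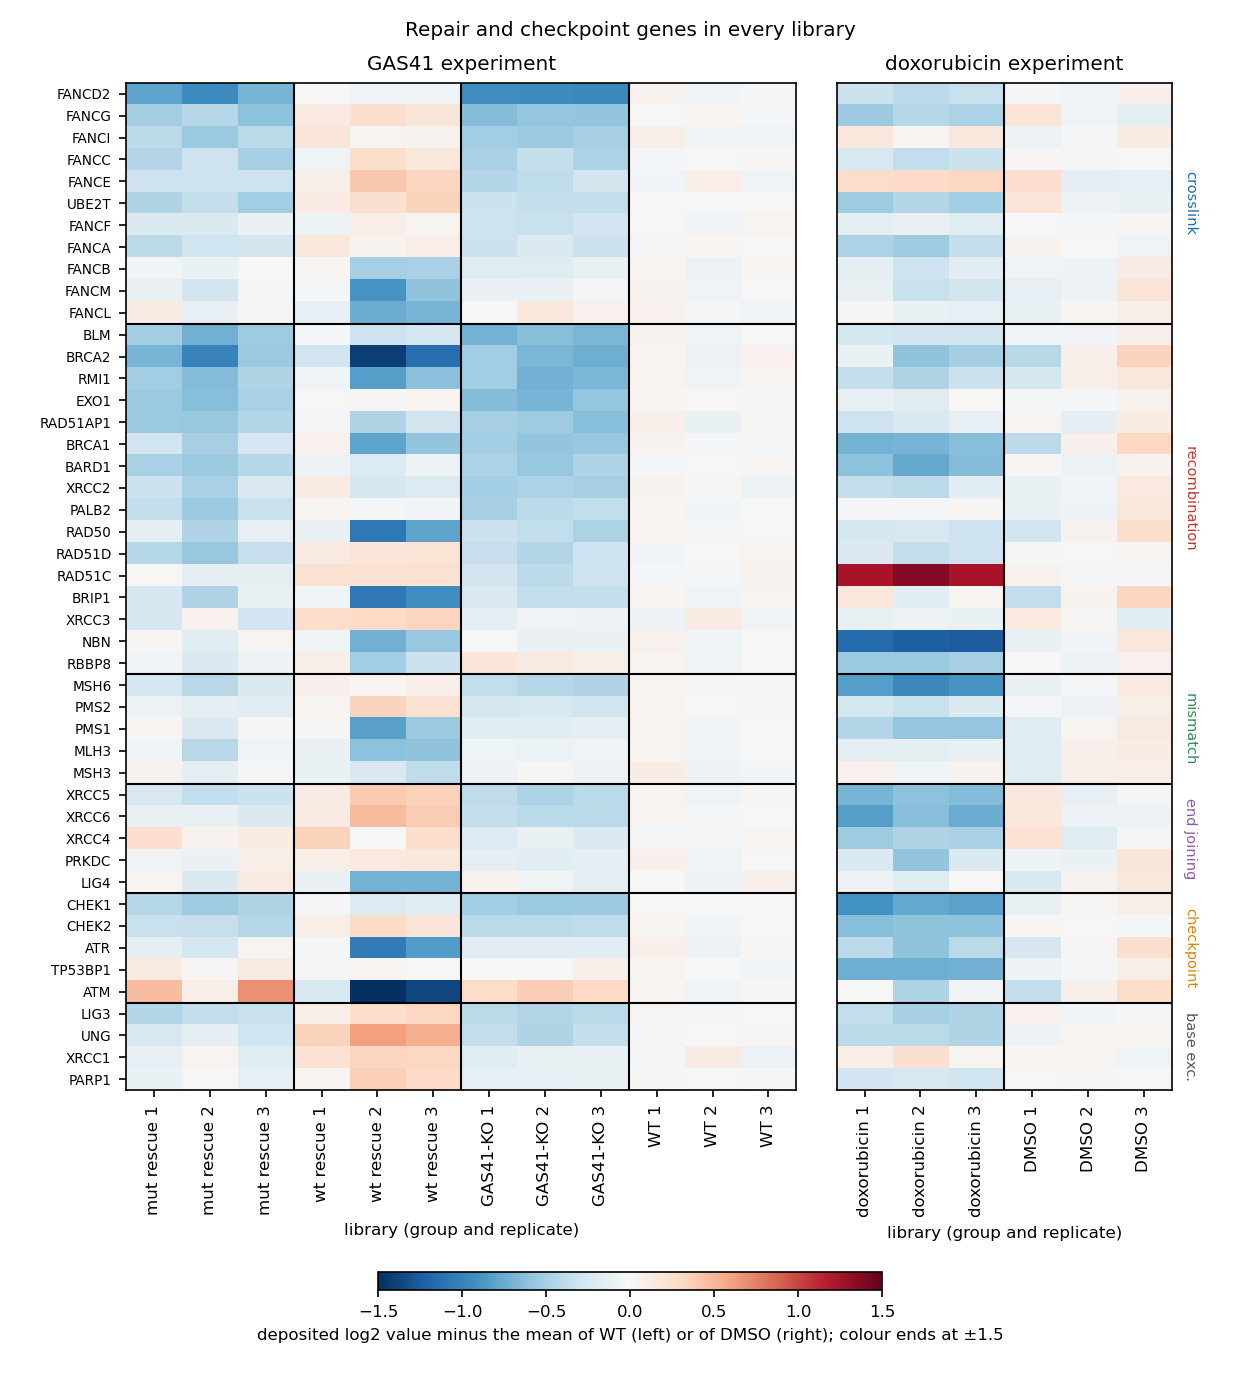
Deposited log2 values of the 46 genes (down the page, by class and then by change in GAS41-KO) in each library (across), minus the mean of WT on the left and of DMSO on the right. Blue is lower and red is higher. FANCD2 and most recombination genes are blue in mut rescue and GAS41-KO, wt rescue replicates 2 and 3 are dark blue for ATM, BRCA2, ATR, BRIP1 and RAD50, and RAD51C is red with doxorubicin.

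Doxorubicin was set against DMSO to ask how transcription responds to DNA damage. Most of the 46 genes were lower in treated cells: 33 fell and 2 rose, and 11 were not called. Of all 14195 genes tested, 33.4% were called lower and 32.3% higher. The median log2 change was -0.31 over the 46 genes and -0.009 over all genes tested. The 3 doxorubicin libraries were all below the 3 DMSO libraries for 29 of the 46 genes, as for 35.2% of all genes tested, and all above them for 3, as for 34%. The genes that rose were RAD51C and FANCE.

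Among recombination genes, RAD51C, a paralogue of the recombinase that acts in strand exchange, moved against the rest. It had 4026, 4487 and 4034 normalized reads with doxorubicin, against 1679, 1554 and 1562 with DMSO. Every treated library was above every DMSO library, and the mean was 2.62 times as high (4182 ± 264 against 1598 ± 69.8, SD, n = 3 each; log2 change 1.28 ± 0.07 (SE), limma adjusted p = 5.575e-09). NBN, which joins RAD50 at broken ends and recruits ATM, fell the most of the 46 genes. Its levels were 580.8, 542.5 and 533.7 with doxorubicin and 1392, 1470 and 1718 with DMSO, a ratio of 0.362 (log2 change -1.21 ± 0.08 (SE), limma adjusted p = 2.197e-08). The groups for NBN were far apart.

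Of the 16 recombination genes, 11 fell and RAD51C rose, with a median log2 change of -0.28. BRCA1, the ubiquitin ligase and scaffold that starts recombination together with BARD1, had 696.3, 705.3 and 745.8 normalized reads with doxorubicin, against 920.2, 1342 and 1613 with DMSO. The treated libraries lay close together and below a widely spread DMSO group, with a ratio of 0.554 (limma adjusted p = 0.00047). BARD1 fell to 0.514 of the DMSO mean with less spread (297.5 ± 24.7 against 579 ± 38.9, SD, n = 3 each; limma adjusted p = 1.615e-06). BRCA2 had 457.3, 270.7 and 301.9 normalized reads with doxorubicin and 333.5, 536.9 and 680.1 with DMSO. It passed the test (limma adjusted p = 0.0429), but doxorubicin replicate 1 was above DMSO replicate 1, so the groups overlapped, and leaving out any library other than doxorubicin replicate 1 or DMSO replicate 1 ended the call (limma adjusted p between 0.1204 and 0.1949). RBBP8, which starts resection, fell to 0.664 of its DMSO mean, and the helicase gene BLM fell to 0.792. PALB2, BRIP1, EXO1 and XRCC3 were not called, with ratios between 0.911 and 0.992.

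Crosslink repair held the other gene that rose. FANCE, a core complex subunit that contacts FANCD2, had 602.5, 607.6 and 622.4 normalized reads with doxorubicin, against 589.7, 409.9 and 410.4 with DMSO. DMSO replicate 1 was almost as high as the treated libraries, and the ratio was 1.3 (limma adjusted p = 0.01336). Without DMSO replicate 2 FANCE was no longer called (limma adjusted p = 0.08167), and the genes called higher were 1 to 3 as each library was left out in turn. UBE2T, the ubiquitin-conjugating enzyme of the pathway, fell the most of the class by log2 change (-0.49). It had 1073, 1159 and 1093 normalized reads with doxorubicin and 1892, 1523 and 1516 with DMSO, groups that did not overlap (ratio 0.674, limma adjusted p = 0.0001633). FANCD2 had 1333, 1260 and 1328 normalized reads with doxorubicin and 1706, 1643 and 1820 with DMSO, also without overlap (ratio 0.759, limma adjusted p = 0.0004164). In all, 8 of the 11 crosslink genes fell, among them FANCA and FANCG at 0.692 and 0.672 of DMSO, and FANCL and FANCI were not called. Without DMSO replicate 3, FANCI was called higher (limma adjusted p = 0.0495).

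End joining and checkpoint genes had lower medians than crosslink and recombination genes, -0.49 and -0.61 against -0.24 and -0.28. The classes were not tested against each other. The deposited scale also shows smaller changes for genes with few reads, and read levels differed between the classes. XRCC6, a subunit of the Ku heterodimer that binds broken ends, had 14650, 16730 and 15600 normalized reads with doxorubicin, against 29260, 24760 and 24960 with DMSO. Its partner XRCC5 fell likewise, to 0.629 of DMSO against 0.595 for XRCC6, and no treated library reached a DMSO library for either gene (limma adjusted p = 1.467e-05 and 7.668e-06). Reads of XRCC6 could be shared with its pseudogenes. PRKDC, the kinase that Ku recruits, had 11540, 8818 and 11540 normalized reads with doxorubicin and 12670, 12500 and 15260 with DMSO, and fell by a smaller margin (ratio 0.789, limma adjusted p = 0.01577), a call lost without doxorubicin replicate 2 or DMSO replicate 3 (limma adjusted p = 0.06748 and 0.06515). XRCC4 also fell, while its partner LIG4, the ligase of the pathway, was not called (ratio 0.903).

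CHEK1, the kinase that ATR activates, had 665.7, 758.3 and 729 normalized reads with doxorubicin, against 1301, 1440 and 1529 with DMSO. CHEK2, the kinase that ATM activates, had 473.1, 491.6 and 493.2 with doxorubicin and 866.3, 838.6 and 817.8 with DMSO. The groups were apart for both genes, at 0.504 and 0.578 of DMSO (limma adjusted p = 4.971e-07 and 1.433e-06). TP53BP1, a scaffold at broken ends that limits resection, fell to 0.5605 of DMSO (1060 ± 5.49 against 1890 ± 121, SD, n = 3 each; limma adjusted p = 6.834e-07). ATR had 745.7, 617.8 and 739.8 normalized reads with doxorubicin and 841.9, 1055 and 1261 with DMSO, a ratio of 0.666 without overlap (limma adjusted p = 0.001745). ATM was not called: it had 549.2, 350.1 and 527.8 with doxorubicin and 389.4, 591.5 and 707.2 with DMSO, and the groups overlapped (ratio 0.845, limma adjusted p = 0.3239). Without DMSO replicate 1, ATM was called lower (limma adjusted p = 0.006631).

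In mismatch repair, MSH6, which recognises base mismatches, fell to 0.497 of DMSO (limma adjusted p = 3.534e-07). Its levels were 1161, 1037 and 1109 with doxorubicin and 2041, 2171 and 2439 with DMSO, without overlap. PMS1 and PMS2 also fell, at 0.621 and 0.7445 of DMSO, and MSH3 and MLH3 were not called. PMS2 has near-identical copies in the genome between which its reads could be divided. Of the base excision genes, LIG3, the ligase that works with XRCC1, had 613.4, 546.6 and 568.2 normalized reads with doxorubicin and 894.7, 820.7 and 824.6 with DMSO (ratio 0.68, limma adjusted p = 6.082e-05). PARP1, a sensor of strand breaks, had 7631, 7894 and 7605 with doxorubicin and 9422, 9274 and 9433 with DMSO (ratio 0.822, limma adjusted p = 0.002863). UNG, which removes uracil from DNA, fell to 0.732 of DMSO, and XRCC1 was not called although its treated libraries were all above the DMSO ones.

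**Figure D2:**
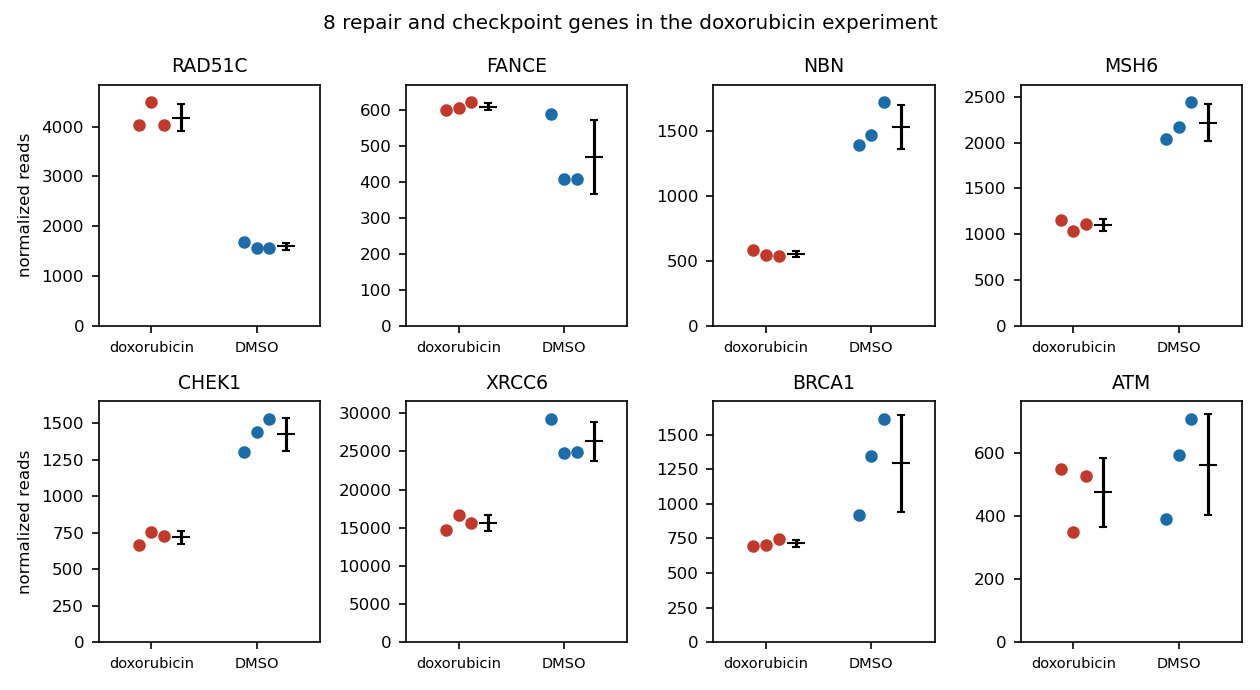
Normalized reads of 8 genes in each of the 3 doxorubicin libraries (red) and the 3 DMSO libraries (blue), with the mean and SD in black beside the points. RAD51C is higher in every treated library, FANCE is higher but close to DMSO replicate 1, NBN, MSH6, CHEK1, XRCC6 and BRCA1 are lower, and ATM overlaps.

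Other measures moved with doxorubicin as well. Of 14 proliferation genes (among them MKI67, CCNB1 and MCM2), 10 fell and 2 rose, and their summed level was 68620 to 69890 normalized reads with doxorubicin, against 92590 to 95360 with DMSO. Of 8 epithelial markers tested, 7 rose and EPCAM fell with doxorubicin, and the markers summed to 146000 to 165200 normalized reads with doxorubicin, against 72260 to 87990 with DMSO. YEATS4 itself had 172.8, 193.4 and 188.4 normalized reads with doxorubicin and 694.4, 612.3 and 697.5 with DMSO (ratio 0.277, limma adjusted p = 3.575e-09). The DMSO libraries differed among themselves: BRCA2, BRCA1, BRIP1, ATM and RAD50 were lowest in DMSO replicate 1. Without DMSO replicate 1, 35 genes were called lower and 2 higher. The part of proliferation, of the epithelial markers and of the spread between DMSO libraries in these changes was not tested. In bulk RNA of this kind, fewer cells in a given state and less RNA per cell cannot be told apart.

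GAS41-KO was set against WT to ask which genes depend on GAS41. Of the 46 genes, 28 fell, 18 were not called and none rose. Of all 14505 genes tested, 26.6% were called lower and 26% higher. The median log2 change was -0.35 over the 46 genes and -0.008 over all genes tested. No gene of the 46 was higher at an unadjusted p under 0.05 in limma, and voom also called 0 higher. When only the 6 libraries of both groups were fitted, 36 genes were called lower and 2, ATM and RBBP8, higher. The 3 GAS41-KO libraries were all below WT for 37 of the 46 genes, as for 35.3% of all genes tested, and all above it for 2, ATM and RBBP8, as for 33.7%.

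Crosslink repair had 8 of 11 genes called lower and recombination 11 of 16, with median log2 changes of -0.34 and -0.46. FANCD2, which is ubiquitinated at crosslinks, had 956.8, 948.3 and 927.9 normalized reads in GAS41-KO, against 2045, 1893 and 1941 in WT. It changed the most of the 46 genes, to 0.482 of WT (log2 change -0.95 ± 0.07 (SE), limma adjusted p = 5.268e-09), with tight and separate groups. Reads of FANCD2 could be shared with its pseudogenes. Its partner FANCI fell to 0.681 of WT (2092 ± 31.3 against 3072 ± 174, SD, n = 3 each; limma adjusted p = 5.594e-06). Of the core complex subunits, FANCG fell the most, to 0.606 of WT (limma adjusted p = 4.793e-07), and FANCC, FANCE, FANCF and FANCA stood between 0.664 and 0.806. UBE2T fell to 0.765. The catalytic subunit FANCL, the translocase FANCM and FANCB were not called, at 1.07, 0.928 and 0.832 of WT, and FANCB was called lower with the 6 libraries of both groups alone (limma adjusted p = 0.01309).

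BLM, a helicase that dissolves joined chromatids together with RMI1, led the recombination genes. It had 630.5, 668.2 and 644.6 normalized reads in GAS41-KO and 1166, 1079 and 1127 in WT, a ratio of 0.576 without overlap (limma adjusted p = 1.802e-06). BRCA2, which loads the recombinase, had 548.7, 471.2 and 451.4 in GAS41-KO and 863, 787.6 and 889 in WT, and BRCA1 had 1239, 1162 and 1181 in GAS41-KO and 1890, 1789 and 1786 in WT. Both were lower in every knockout library, at 0.579 and 0.656 of WT (limma adjusted p = 0.01004 and 0.004505), in a fit whose spread also takes in the wt rescue libraries. Reads of BRCA1 could be shared with its partial pseudogene. RMI1, EXO1, a nuclease of resection, and RAD51AP1, a helper of strand invasion, stood at 0.593, 0.6 and 0.618 of WT. BARD1, RAD51D, XRCC2, PALB2 and RAD51C fell too, to between 0.64 and 0.777 of WT. The recombination genes not called were XRCC3, BRIP1, NBN, RBBP8 and RAD50. RAD50 stood at 0.746 of WT (limma adjusted p = 0.05677) and was called lower with the 6 libraries of both groups alone (limma adjusted p = 1.008e-14) and with a replicate block (limma adjusted p = 0.02376). With those 6 libraries BRIP1 was called lower and RBBP8, at 1.1 of WT, higher (limma adjusted p = 1.476e-09 and 0.002139).

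Of 5 end joining genes 3 fell, of 5 mismatch genes 2, of 5 checkpoint genes 2 and of 4 base excision genes 2, with median log2 changes of -0.18, -0.16, -0.16 and -0.26. The classes were not tested against each other. With the 6 libraries of both groups alone, XRCC4, PMS1 and XRCC1 were called lower too (limma adjusted p = 0.0005816, 0.0008908 and 0.01542). XRCC5 had 13010, 12310 and 12820 normalized reads in GAS41-KO, against 17490, 16350 and 17190 in WT, and XRCC6 stood at 0.764 of WT. The Ku genes were lower in every knockout library (XRCC5 ratio 0.748, limma adjusted p = 0.0001073). PRKDC had 18920, 18360 and 18770 in GAS41-KO and 21840, 19830 and 20600 in WT (ratio 0.9, limma adjusted p = 0.04918). PRKDC lost its call without any 1 library other than WT replicate 2 (limma adjusted p between 0.08269 and 0.2034). MSH6 had 1941, 1866 and 1826 in GAS41-KO and 2648, 2531 and 2503 in WT (ratio 0.733, limma adjusted p = 3.079e-05), and PMS2 stood at 0.778 of WT.

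The effector kinases fell, and the calls of ATM and ATR depended on the libraries fitted. CHEK1 had 1070, 1035 and 1040 normalized reads in GAS41-KO, against 1585, 1595 and 1594 in WT (ratio 0.659, limma adjusted p = 1.557e-06). CHEK2 had 495.8, 498.9 and 508.5 in GAS41-KO and 720.8, 678.1 and 708.7 in WT (ratio 0.713, limma adjusted p = 3.908e-05). Reads of CHEK2 could be shared with its pseudogenes. ATR had 1281, 1283 and 1264 in GAS41-KO and 1529, 1347 and 1465 in WT, and ATM had 1308, 1412 and 1329 in GAS41-KO and 1089, 1010 and 1067 in WT. ATR was below WT and ATM above it in every knockout library, but neither was called (limma adjusted p = 0.4565 and 0.2589). With the 6 libraries of both groups alone, ATM was called higher and ATR lower (limma adjusted p = 2.463e-10 and 0.0004996). LIG3 led the base excision genes with 555.7, 533.5 and 553.5 in GAS41-KO and 788.5, 761.2 and 774.2 in WT (ratio 0.707, limma adjusted p = 4.35e-05), and UNG stood at 0.751. PARP1 had 8416, 8420 and 8542 in GAS41-KO and 9359, 9197 and 9064 in WT, below WT but not called (ratio 0.919, limma adjusted p = 0.1849), and called lower with the 6 libraries of both groups alone (limma adjusted p = 0.001447).

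**Figure D3:**
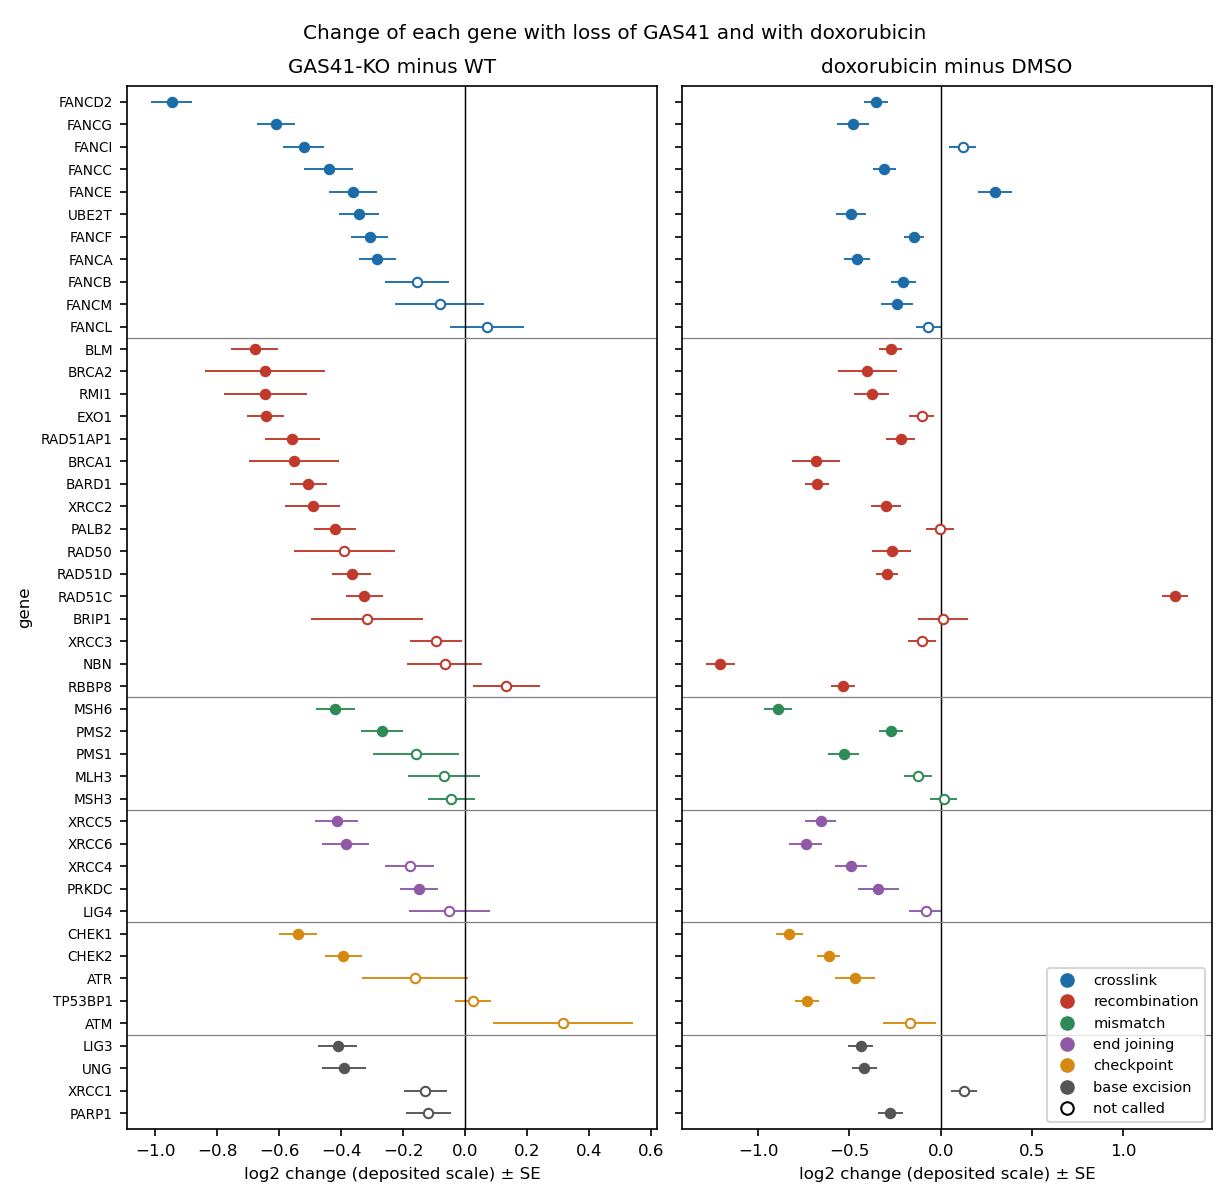
Log2 change on the deposited scale (across) of each gene (down the page, by class) in GAS41-KO minus WT on the left and doxorubicin minus DMSO on the right, with the standard error of limma as bars. Filled points are called at an adjusted p under 0.05 and open points are not. FANCD2 lies lowest on the left, at -0.95, and RAD51C and NBN lie at 1.28 and -1.21 on the right.

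The knockout and doxorubicin comparisons share no library, so their calls can be set side by side. Of the 28 genes lower in GAS41-KO, 23 were also lower with doxorubicin, 82.1% of the knockout list and 69.7% of the 33 doxorubicin genes. Of the 46 genes, 71.7% were lower with doxorubicin whatever their call in GAS41-KO. Of the 3819 genes lower in GAS41-KO among all 13803 tested in both tables, 51.8% were lower with doxorubicin. FANCE and RAD51C were lower in GAS41-KO and higher with doxorubicin, and FANCI, PALB2 and EXO1 were lower in GAS41-KO and not called with doxorubicin. Proliferation genes were lower in GAS41-KO too: 11 of 14 fell, none rose, and their summed level was 66900 to 69080 normalized reads in GAS41-KO, against 89980 to 90760 in WT. Epithelial adhesion genes, singled out after their values were seen, moved as well: EPCAM averaged 915 normalized reads in GAS41-KO and 7503 in WT, and CDH1 138 in GAS41-KO and 1419 in WT (ratios 0.122 and 0.0972, limma adjusted p = 3.492e-14 and 3.051e-14). Of 7 epithelial markers tested, 3 were higher and 2 lower in GAS41-KO. The part of these lists in the result was not tested.

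The promoters of genes lower in GAS41-KO are shown because replication-dependent genes often carry sites of the E2F factors. The windows of RefSeq (GRCh38.p14) run from 250 bases before to 50 after the start of a transcript, and 42 of the 46 genes have one. The letters TTTGGCGC, TTTCCCGC, TTTGCCGC and TTTCGCGC were searched on both strands, and a gene with several matches, overlapping or not, was counted once. A match was present for 10 of the 25 genes called lower (40%) and for 1 of the 17 genes not called (5.88%), MSH3. The genes not called include FANCB, RAD50, BRIP1, XRCC4, PMS1, XRCC1, ATR and PARP1, which had no match. These were called lower with the 6 libraries of both groups alone, so the shares depend on the libraries fitted. A match was present for 6.51% of the 10483 genes tested in the GAS41 table with a window and for 8.17% of the 2877 such genes called lower in GAS41-KO. The CCAAT box (CCAAT, both strands) was present for 56% of the genes called lower, 52.9% of those not called and 42.95% of the genes tested. The cell cycle element CHR (TTTGAA, both strands) was present for 12%, 17.65% and 13.6%. A match is a run of letters and not a measured site. The sequences around the match in 5 of the called genes and in MSH3 follow, in the direction of transcription, with the letters of every match in capitals. In MSH3 a match on either strand overlaps another. FANCD2 is at chr3:10026405-10026458 (plus strand), EXO1 at chr1:241848178-241848225 (plus strand), MSH6 at chr2:47783118-47783166 (plus strand), UNG at chr12:109098079-109098146 (plus strand), FANCA at chr16:89816782-89816849 (minus strand) and MSH3 at chr5:80654515-80654582 (plus strand).
FANCD2: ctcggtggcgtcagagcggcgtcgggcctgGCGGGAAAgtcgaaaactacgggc
EXO1: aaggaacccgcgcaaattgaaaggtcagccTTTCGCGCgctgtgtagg
MSH6: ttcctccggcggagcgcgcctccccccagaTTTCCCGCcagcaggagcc
UNG: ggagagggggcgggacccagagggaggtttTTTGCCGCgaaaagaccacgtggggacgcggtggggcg
FANCA: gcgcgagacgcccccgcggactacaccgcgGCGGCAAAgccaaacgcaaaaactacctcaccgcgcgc
MSH3: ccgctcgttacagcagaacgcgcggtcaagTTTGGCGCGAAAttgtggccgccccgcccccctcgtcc

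The rescue lines ask whether the changes of the knockout return with normal or YEATS-mutated GAS41. The wt rescue libraries stood apart from each other. Between replicates 2 and 3 the chi-square per degree of freedom over genes, which is 1 for counting noise, was 3.13, but it was 25.3 and 16.4 between replicate 1 and these. Of the 46 genes, 26 were lower in both replicates 2 and 3 than in replicate 1 (56.5%), as were 31.8% of all genes tested and 18 of 30 genes with long transcripts (60%). Such shares were not particular to wt rescue: WT replicates 2 and 3 were both below replicate 1 for 30 of the 46 genes, and mut rescue replicates 1 and 2 were both below replicate 3 for 25 of them and for 29 of the 30 long transcripts. The differences were larger in wt rescue, down to -1.19 on the log2 scale for a repair gene, against -0.17 in WT and -0.41 in mut rescue. The chi-square was also 16.3 between mut rescue replicates 2 and 3 and 19.4 between DMSO replicates 1 and 3. ATM had 868.5, 283.7 and 325.1 normalized reads in wt rescue, BRCA2 had 663.3, 233.7 and 311.7, and ATR had 1416, 624.8 and 747.3. For each of these genes replicate 1 was far above replicates 2 and 3, which lay close together. The part of transcript length in this difference was not tested, and calls of wt rescue were also made with replicate 1 alone.

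**Figure D4:**
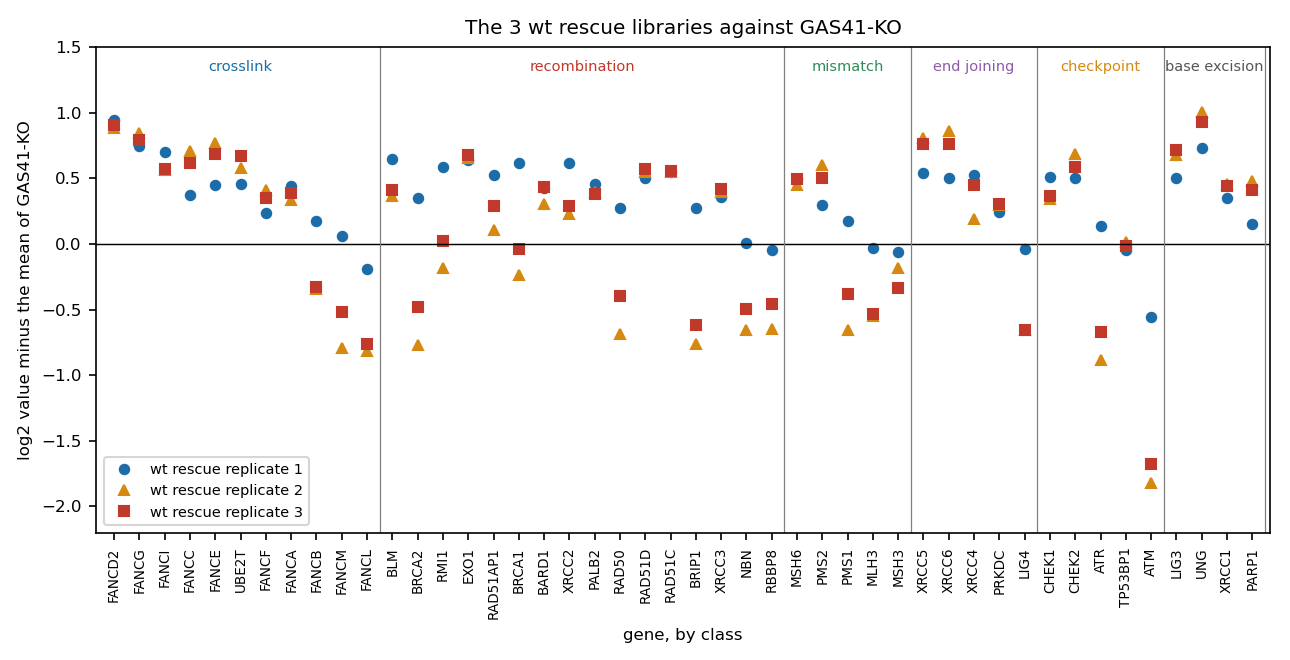
Deposited log2 value of each gene (across, by class) in the 3 wt rescue libraries, minus the mean of GAS41-KO. The libraries lie together above 0 for FANCD2, FANCG, EXO1, MSH6 and UNG, whereas replicates 2 and 3 lie below 0 and replicate 1 above 0 for BRCA2, RAD50, BRIP1 and ATR.

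Compared with GAS41-KO, 29 of the 46 genes rose in wt rescue and 9 fell. Of all 14505 genes tested, 33% were called higher and 33% lower, and the median log2 change was 0.39 over the 46 genes and -0.012 over all. With replicate 1 alone, whose spread is then taken from the other groups, 33 genes rose and 1, ATM, fell. Of the 29 genes that rose, 28 were called with replicate 1 alone, with log2 changes of 0.24 (FANCF) to 0.94 (FANCD2), and 8 of the 9 that fell were not. The genes called only with replicate 1 alone were BRCA1, BRCA2, BRIP1, RMI1 and RAD50, all higher. Among genes called both ways, the log2 change with replicate 1 alone was 0.37 in place of 0.57 for FANCC, 0.53 in place of 0.31 for RAD51AP1, 0.62 in place of 0.38 for XRCC2, 0.30 in place of 0.47 for PMS2 and -0.56 in place of -1.35 for ATM. With all 3 libraries, wt rescue lay wholly above GAS41-KO for 29 genes and wholly below it for 5, against 34.7% and 34% of all genes tested. Of the crosslink genes 8 rose and 2 fell, of the recombination genes 9 and 2, of the mismatch genes 2 and 2, of the end joining genes 4 and 1, and of the checkpoint genes 2 and 2, while all 4 base excision genes rose.

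In mut rescue against GAS41-KO, 43 of the 46 genes were not called, 3 rose and none fell. Of all genes tested, 5.92% were called higher and 9% lower. Among the 46, the mut rescue libraries were all above GAS41-KO for 10 genes and all below it for 2, against 16.9% and 16.8% of all genes tested. The median log2 change was 0.06 over the 46 genes and 0.008 over all. At an unadjusted p under 0.05, 5 were higher and 1 lower in limma, and voom called 3 higher and 0 lower. The genes that rose were XRCC4, with 784.8, 665.5 and 700.2 normalized reads in mut rescue against 534.8, 578.1 and 526.5 in GAS41-KO (ratio 1.31, limma adjusted p = 0.01275), RAD51C, with 1435, 1303 and 1292 against 1164, 1067 and 1138 (ratio 1.2, limma adjusted p = 0.01491), and XRCC6 (ratio 1.18, limma adjusted p = 0.04239). Their groups did not overlap. Without mut rescue replicate 1 none of the 3 was called (limma adjusted p between 0.07504 and 0.1372), and without any 1 of the GAS41-KO libraries 1 gene was called. The wt rescue and mut rescue comparisons share the GAS41-KO libraries.

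The rescue lines were therefore compared with each other. Of the 46 genes, 28 were lower in mut rescue than in wt rescue and 10 higher, where 31.3% of all genes tested were called lower and 29.8% higher. All mut rescue libraries were below all wt rescue libraries for 26 genes and above them for 1, ATM, against 30.2% and 27.7% of all genes tested. The median log2 change was -0.31 over the 46 genes and 0.005 over all. With wt rescue replicate 1 alone, 27 genes were lower and 1, ATM, was higher, and 24 of the 28 lower genes were called lower in both fits, with log2 changes of -0.81 (FANCD2) to -0.26 (XRCC6) in the second. The log2 change with replicate 1 alone was -0.35 in place of -0.54 for FANCC, -0.49 in place of -0.27 for RAD51AP1 and -0.47 in place of -0.23 for XRCC2. As each library was left out in turn, 25 to 28 genes were lower, and 4 (without wt rescue replicate 2, wt rescue replicate 3 or mut rescue replicate 3), 5 (without mut rescue replicate 1), 12 (without mut rescue replicate 2) or 16 (without wt rescue replicate 1) were higher. With the 6 libraries of both groups alone, 4 were higher. Of the 28 genes lower in GAS41-KO than in WT, 25 were lower in mut rescue than in wt rescue (89.3% of either list). This pair of comparisons shares no library, but it shares 1 fit and its estimate of spread per gene, so the calls are not independent. The count was also 25 with wt rescue replicate 1 alone. Of all 3852 genes lower in GAS41-KO, 73.4% were lower in mut rescue than in wt rescue with all libraries and 65.9% with wt rescue replicate 1 alone, and 60.9% of the 46 genes were lower in mut rescue whatever their call in GAS41-KO. The exceptions with all libraries, BRCA1, BRCA2 and RMI1, were not called.

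Of the 11 crosslink genes, 8 were lower and 3 higher in mut rescue than in wt rescue (31.3% and 29.8% of all genes tested). All 4 base excision genes were lower as well, and of the 14 proliferation genes 10 were lower and 1 higher. FANCD2 had 1073, 945.9 and 1147 normalized reads in mut rescue and 1953, 1871 and 1896 in wt rescue. The mut rescue libraries were all lower, at 0.553 of wt rescue (log2 change -0.78 ± 0.07 (SE), limma adjusted p = 7.575e-08). Against GAS41-KO, FANCD2 was 2.02 times as high in wt rescue (limma adjusted p = 6.533e-09) and 1.12 times as high in mut rescue (limma adjusted p = 0.181). FANCG, UBE2T and FANCE stood at 0.566, 0.594 and 0.579 of wt rescue, and FANCI at 0.674. FANCL, FANCM and FANCB were higher in mut rescue by the test, but the groups overlapped, and none was called with wt rescue replicate 1 alone.

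Some recombination genes were steady across the wt rescue libraries and others were not. EXO1 had 833.7, 777.3 and 877.2 normalized reads in mut rescue, 1284, 1306 and 1329 in wt rescue and 769.2, 738.4 and 818.8 in GAS41-KO. The wt rescue libraries were apart from both (ratio 1.685 over GAS41-KO, limma adjusted p = 9.033e-08). RAD51D, a recombinase paralogue, had 109.7, 90.8 and 123.7 in mut rescue and 217.1, 228.4 and 233.3 in wt rescue, the lowest ratio of the 46 genes (0.478, limma adjusted p = 7.454e-07). RAD51C, XRCC3, PALB2, BARD1 and BLM were also lower in mut rescue, without overlap. BRCA1 had 1476, 1242 and 1510 in mut rescue, and 1906, 992 and 1158 in wt rescue, where replicate 1 was at the WT level and the others were below the knockout libraries. BRCA1 was not called with all libraries (log2 change 0.1, limma adjusted p = 0.5794), and its log2 change was -0.40 with wt rescue replicate 1 alone. Every mut rescue library was below wt rescue replicate 1 and above wt rescue replicates 2 and 3, so the direction depended on the library. BRCA2 had 468.7, 352.2 and 527.2 in mut rescue, against 663.3, 233.7 and 311.7 in wt rescue. Again every mut rescue library was below wt rescue replicate 1 and above replicates 2 and 3. The log2 change of BRCA2 was 0.19 with all libraries (limma adjusted p = 0.4011) and -0.46 with wt rescue replicate 1 alone.

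The other classes held both kinds of gene. UNG had 2536, 2724 and 2427 normalized reads in mut rescue and 3872, 4726 and 4458 in wt rescue, all lower, at 0.589 (limma adjusted p = 4.185e-07). It was 1.91 times as high in wt rescue as in GAS41-KO, whose libraries had 2319, 2180 and 2321. LIG3, XRCC1 and PARP1 were lower in mut rescue as well, PARP1 with 8558, 9176 and 8444 in mut rescue and 9413, 11850 and 11270 in wt rescue (ratio 0.805, limma adjusted p = 0.002147). With wt rescue replicate 1 alone PARP1 was not called (limma adjusted p = 0.2065). XRCC6 had 18730, 18740 and 17280 in mut rescue and 21930, 28070 and 26250 in wt rescue, and XRCC5 had 14320, 13100 and 13510 in mut rescue and 18580, 22370 and 21620 in wt rescue. The Ku genes were lower in every mut rescue library, at 0.718 and 0.654 of wt rescue (limma adjusted p = 7.121e-05 and 2.436e-06). With wt rescue replicate 1 alone the log2 change of XRCC6 was -0.26 in place of -0.47, and that of XRCC5 -0.44 in place of -0.60 (limma adjusted p = 0.004495 and 9.816e-05). PRKDC had 20050, 19360 and 22000 in mut rescue and 22120, 23000 and 23090 in wt rescue, and was lower by the test (ratio 0.9, limma adjusted p = 0.04014), but not with wt rescue replicate 1 alone (limma adjusted p = 0.25). LIG4 was higher in mut rescue by the test (ratio 1.59, limma adjusted p = 0.004116), with overlap, and was not called with wt rescue replicate 1 alone (limma adjusted p = 0.5816).

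MSH6 had 2113, 1879 and 2176 normalized reads in mut rescue and 2713, 2619 and 2706 in wt rescue, without overlap (ratio 0.767, limma adjusted p = 0.0001186). PMS2 was lower in mut rescue too, but not with wt rescue replicate 1 alone (limma adjusted p = 0.1042), while MSH3 and PMS1 were higher with overlap and not called with wt rescue replicate 1 alone. CHEK1 had 1150, 1054 and 1123 in mut rescue and 1559, 1364 and 1393 in wt rescue, and CHEK2 had 528.5, 524.8 and 487.9 in mut rescue and 765.9, 888.7 and 823.7 in wt rescue. The effector kinases were lower in every mut rescue library, at 0.771 and 0.622 (limma adjusted p = 0.0001782 and 1.012e-06). ATM had 1505, 1132 and 1789 in mut rescue, above every wt rescue library, at 3.00 times the wt rescue mean (log2 change 1.45, limma adjusted p = 5.078e-05). With wt rescue replicate 1 alone the log2 change of ATM was 0.66 (limma adjusted p = 0.001353). ATR had 1302, 1180 and 1497 in mut rescue, which overlapped wt rescue, and it was called higher with all libraries and not with wt rescue replicate 1 alone (limma adjusted p = 0.01633 and 0.4819).

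**Figure D5:**
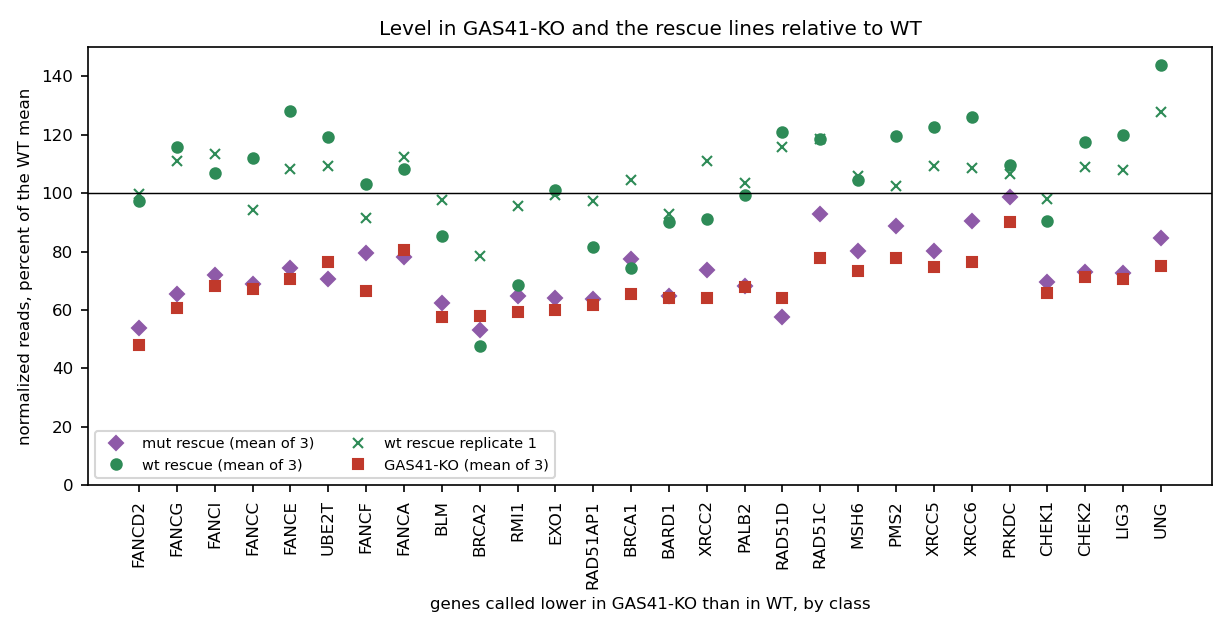
Normalized reads as a percent of the WT mean (up the page) for the 28 genes called lower in GAS41-KO (across, by class), in mut rescue, wt rescue and GAS41-KO (means of 3 libraries) and in wt rescue replicate 1 (crosses). The genes were chosen on the GAS41-KO and WT values. The mut rescue points lie near the GAS41-KO points, and most wt rescue points lie near or above 100%, with BRCA2, RMI1 and BRCA1 below 80%.

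Over the 28 genes called lower in GAS41-KO, the mut rescue level was 53.1% to 98.6% of WT, with a median of 72.3%. The wt rescue level was 47.6% to 144% of WT (median 107%), and 78.35% to 128% in replicate 1 (median 106%). The GAS41-KO level was 48.2% to 90% (median 67.6%), values that chose the genes. Against WT, 23 of the 46 genes were lower in mut rescue and none higher, where 22.9% of all genes tested were called lower and 23.5% higher. The groups did not overlap for 29 genes below WT and 2 above, against 27.9% and 28.1% of all genes. At an unadjusted p under 0.05, 24 were lower and 0 higher in limma, and voom called 0 higher. The 8 crosslink genes lower in GAS41-KO were lower here too, led by FANCD2 (ratio 0.5385, limma adjusted p = 4.445e-08). BRCA2 led recombination (ratio 0.531, limma adjusted p = 0.004364), and XRCC5, MSH6, CHEK1 and LIG3 led their classes at 0.802, 0.803, 0.697 and 0.726 of WT. LIG3 had 533.5, 567.7 and 586.5 normalized reads in mut rescue, all below the WT libraries given above.

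The wt rescue line did not equal WT at all genes. Against WT, 15 genes were higher and 17 lower, where 27.4% of all genes tested were called higher and 22.7% lower. The groups did not overlap for 14 genes above WT and 9 below, against 32.4% and 24.8% of all genes. With replicate 1 alone, 2 genes, UNG and XRCC4, were higher and none was lower, in a test with 1 library in that group. UNG stood at 1.44 times WT (limma adjusted p = 8.771e-05) and was above WT in every wt rescue library. The genes lower than WT included ATM (ratio 0.4665), BRCA2 (0.476), FANCL (0.599), LIG4 (0.628) and MLH3 (0.654), none called with replicate 1 alone. FANCL had 278.9, 139.8 and 148.6 normalized reads in wt rescue and 336, 308.8 and 302.6 in WT, and LIG4 had 355.6, 188.8 and 188.9 in wt rescue and 386.6, 361.7 and 419.3 in WT. MLH3, a mismatch repair partner, had 306.8, 177.3 and 180.6 in wt rescue and 353.2, 323.9 and 338.7 in WT. For these genes every wt rescue library was below WT, replicate 1 by the least. YEATS4 was 5.26 times as high in wt rescue as in WT and 4.015 times as high in mut rescue as in WT, and mut rescue had 0.763 of the wt rescue level (limma adjusted p = 0.0004433).

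Proliferation genes moved with the rescue lines. None of the 14 was called in mut rescue against GAS41-KO, and 10 rose and 1 fell in wt rescue against GAS41-KO. Their summed level was 69530 to 69760 normalized reads in mut rescue and 97520 to 99700 in wt rescue. In wt rescue against GAS41-KO, 33% of all genes tested were called lower and 33% higher. Among the 30 genes with long transcripts, 20 fell and 3 rose there, with a median log2 change of -0.64. With wt rescue replicate 1 alone, 14 of these fell and 1 rose (median -0.20). EPCAM and CDH1 were 0.185 and 0.121 times as high in mut rescue as in wt rescue, and 9.85 and 9.79 times as high in wt rescue as in GAS41-KO. The part of these lists in the repair gene results was not tested.

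The remaining genes of these pathways were described with 78 further genes. In GAS41-KO, 38 of them (48.7%) were lower and 6 (7.7%) higher than in WT, where 26.6% and 26% of all genes were. TIPIN, which steadies stalled replication forks, stood at 0.541 of WT (399.9 ± 31.3 against 739.5 ± 35.9 normalized reads, SD, n = 3 each; limma adjusted p = 9.921e-08), and RFC5, a subunit of the clamp loader, at 0.6 of WT (1288 ± 10.3 against 2145 ± 101, SD, n = 3 each; limma adjusted p = 7.535e-07). In wt rescue against GAS41-KO 41 were higher and 6 lower, where 33% and 33% of all genes were. The median log2 change of these further genes was 0.24, and 0.27 with replicate 1 alone. In mut rescue against GAS41-KO 6 were higher and 3 lower, where 5.92% and 9% of all genes were. With doxorubicin, 25 of the 77 tested were higher (32.5%) and 28 lower (36.4%), close to the 32.3% and 33.4% of all genes. The largest changes were XPC and DDB2, which recognise damage in nucleotide excision repair, at 3.05 times the DMSO level each (3099 ± 29.98 against 1016 ± 42.3 for XPC, 3025 ± 143 against 990.5 ± 93.8 for DDB2, SD, n = 3 each; limma adjusted p = 7.357e-10 and 3.135e-09). The 11 genes of nucleotide excision repair had 5 higher and 3 lower, and of 8 further end joining genes 6 were higher and none lower, whereas 4 of the 5 end joining genes above fell.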

How the data were processed

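The authors deposited 2 expression tables of RNA-seq from HCT116 cells, 1 per experiment, whose values are log2 values from a variance-stabilizing transformation and not counts, as tested on the files. The submitters' processing notes list TopHat2 2.1.0, DESeq2, Bowtie 1.0.1, HTSeq and Trimmomatic 0.36, and the builds hg19 and mm9, all without a role. Gene annotation and strand use are not given in the sources used here. Undoing the transformation gave whole reads for 100% of values, within 0.01 of a read, and so the depths and normalized reads printed.

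Genes with at least 10 reads in at least 3 libraries were tested on the deposited log2 values with limma 3.58.1 (R 4.3.3; moderated test with a mean-variance trend) and Benjamini-Hochberg adjustment over all genes tested, at 0.05. All 12 libraries of the GAS41 experiment shared 1 fit, and the 6 of the doxorubicin experiment another. A count model was not the main test because the deposited values are log2 values, and voom was run on the reads recovered from them. The fit was also run on simulated reads with the same spread setting for every gene and library. The wt rescue libraries were uneven, so that run cannot show how the fit performs on them. Alternatives were no filter, quantile normalization, voom, a constant prior variance, only both groups compared, a replicate block, each replicate left out, and wt rescue replicate 1 alone. The members, gene lists and tests were chosen with earlier results of these data known. All 46 genes could be named; library values are given for 11 fixed genes and the gene with the largest called change of each class in each comparison, and other genes where a result turns on them. The 26 ChIP-seq and input samples were not analysed here. Figures were drawn with matplotlib 3.10.9.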

Additional observations from a re-analysis of the deposited data

Results flagged for a closer look

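The rescue lines differed by at least 0.7 log2, with a call and without overlap, for 4 of the 46 genes. The other genes called between the rescue lines, given above, did not meet these criteria. The log2 change of mut rescue against wt rescue was -0.78 for FANCD2, -0.73 for UNG and -0.705 for FANCG. It was 1.45 for ATM, which with wt rescue replicate 1 alone was 0.66. Each had a limma adjusted p of at most 5.078e-05.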

How the results depend on the processing

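Of 3956 values of single genes under an alternative, 3584 kept their direction and side of the threshold, 75 changed sign without a call either way, 60 gained a call, 219 lost one and 18 reversed with a call. The cause of these shifts was not tested. As each library was left out, the genes higher with doxorubicin numbered 1 to 3 (1 without DMSO replicate 2), those lower in wt rescue than in GAS41-KO 4 to 14 (4 without wt rescue replicate 2 or 3, 14 without replicate 1), those higher in mut rescue than in GAS41-KO 0 to 4, those higher in mut rescue than in wt rescue 4 to 16 (4 without wt rescue replicate 2 or 3 or mut rescue replicate 3, 5 without mut rescue replicate 1, 16 without wt rescue replicate 1), and those higher and lower in wt rescue than in WT 8 to 16 and 11 to 20 (8 and 11 without wt rescue replicate 3). With wt rescue replicate 1 alone, 1 gene was lower than in GAS41-KO, 1 was higher in mut rescue than in wt rescue, and 2 were higher and 0 lower than in WT. With only the groups compared, 2 genes were higher in GAS41-KO than in WT, 1 lower in mut rescue than in GAS41-KO, 4 higher in mut rescue than in wt rescue and 1 higher in mut rescue than in WT. Quantile normalization left 9 genes higher in wt rescue than in WT.

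Class medians also moved. The voom values are log2 changes of reads and not of the variance-stabilized values, so their sizes are not in the same unit. With voom, all 46 genes kept their call in every comparison. With doxorubicin, voom gave -0.40 for crosslink repair, -0.40 for recombination, -0.42 for mismatch repair, -0.66 for end joining and -0.79 for checkpoint genes, and quantile normalization gave -0.21 for base excision. In GAS41-KO against WT, voom gave -0.50 for crosslink repair and -0.62 for recombination. In wt rescue against GAS41-KO, quantile normalization gave 0.47 for crosslink repair, -0.036 for mismatch repair and -0.14 for checkpoint genes, and voom gave -0.35 for mismatch repair and 0.63 for base excision. Replicate 1 alone, a choice made for medians, further gene lists and shared calls after seeing the data, gave 0.44, 0.48, 0.17, 0.51, 0.14 and 0.43 for crosslink, recombination, mismatch, end joining, checkpoint and base excision genes.

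The log2 changes that reversed, with a call as reported or under the alternative, in wt rescue replicate 1 alone against GAS41-KO were FANCM 0.059, BRCA2 0.35, BRIP1 0.27, RAD50 0.27, NBN 0.005 and ATR 0.14. In mut rescue against wt rescue they were FANCB -0.065, FANCM -0.11, BRCA1 -0.40, BRCA2 -0.46, RAD50 -0.12, PMS1 -0.069 and ATR -0.091 with replicate 1 alone, RMI1 0.19 without wt rescue replicate 1 (-0.20 to 0.19 as each library was left out), and PRKDC 0.028 with quantile normalization. Against WT they were FANCB 0.016, BRCA1 0.061 and PMS1 0.012 with replicate 1 alone. Another 12 values with replicate 1 alone changed sign and were called neither way, among them FANCB 0.17 and PMS1 0.17 against GAS41-KO, BRIP1 -0.23, RBBP8 -0.20 and MLH3 -0.073 in mut rescue against wt rescue, and XRCC2 0.12, RBBP8 0.085 and FANCC -0.067 against WT.

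Libraries with equal replicate numbers deviated together in part. Of 18 correlations in the GAS41 experiment (-0.39 to 0.478), 11 were over 0.1. Of 3 in the doxorubicin experiment (-0.393 to 0.15), 1 was over 0.1. Whether equal numbers mark paired libraries was not tested. The replicate block gave 2 genes higher and 32 lower with doxorubicin, 0 and 28 in GAS41-KO against WT, 29 and 11 in wt rescue against GAS41-KO, 3 and 0 in mut rescue against GAS41-KO, 12 and 28 in mut rescue against wt rescue, 15 and 18 in wt rescue against WT, and 0 and 24 in mut rescue against WT. Depth limits low genes such as MSH3, whose changes are smaller on the deposited scale than as ratios of reads.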
